A study of Mus musculus with 8 samples.

Results

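The sarcoplasmic reticulum (SR) calcium cycling genes are the genes for the pump, release channel, buffers and junction proteins of the calcium store of heart muscle. They were taken by name, by a rule that uses no measured value, although earlier results of these data were known when it was set: *Atp2a2*, *Pln*, *Sln*, *Ryr2*, *Casq2*, *Trdn*, *Hrc*, *Asph*, *Jph2* and *Fkbp1b*. These 10 genes, of 26590 gene symbols in the table, were listed with 29 of its 51414 transcript rows, and all 29 rows were expressed above the limit for testing. RNA was sequenced from fetal hearts of C57BL/6J mice, 4 of them *Dio3+/+* and 4 *Dio3-/-*, each from an individual mouse. *Dio3* encodes the type 3 deiodinase, the enzyme that inactivates thyroid hormones, and the *Dio3-/-* fetus lacks it in every tissue, so a difference in the heart is not specific to loss of the enzyme in heart cells. The deposited table holds the mean of each genotype and its coefficient of variation (CV, the SD divided by the mean), not the value of each heart, so whether single hearts overlap cannot be given.

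At each heartbeat, calcium that enters a cardiomyocyte opens the ryanodine receptor in the SR membrane, and the calcium released from the store makes the myofilaments contract. The SR calcium pump then returns calcium to the store, and the heart relaxes. Small membrane peptides hold the pump back, calsequestrin and other proteins bind calcium inside the store, and junctional proteins keep the release channel close to the surface membrane. Genes of this system are well known in the adult heart for their response to thyroid hormone, which raises the pump and lowers its inhibitor phospholamban.

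Some labels need to be read with care. All 8 titles give the embryonic age E13.5, but the age field of *Dio3-/-* hearts 3 and 4 gives E18.5, and the methods name E14.5. With genotype means alone these hearts cannot be set aside. The series describes the hearts as male, while *Xist*, expressed from the inactive X of female cells, averaged 35.6 RPKM in *Dio3+/+* (CV 0.99) and 39.97 RPKM in *Dio3-/-* hearts (CV 0.55). The Y-linked gene *Eif2s3y* averaged 9.38 RPKM in *Dio3+/+* (CV 1.04) and 7.29 RPKM in *Dio3-/-* hearts (CV 1.46). The sex of each heart cannot be read from genotype means and was not taken into account. RPKM is a read count divided by transcript length and by the number of mapped reads, so that levels can be compared between genes. *Dio3* itself averaged 0.35 RPKM in *Dio3+/+* (CV 1.23) and 0.13 RPKM in *Dio3-/-* hearts (CV 0.76), too low for testing, so it gave no check of the genotype labels. Heart muscle markers were abundant, and 7 cardiomyocyte genes summed to 7769 RPKM in the *Dio3+/+* and 9223 RPKM in the *Dio3-/-* hearts.

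Upstream sequence is shown for *Ryr2*, the release channel, and for *Pln*, which encodes phospholamban, the pump's inhibitor. The pair was chosen with its results known, since *Ryr2* passed the test and *Pln* did not. Thyroid hormone receptors bind the half-site AGGTCA, and whether they bind either gene here was not tested. Each sequence is the 250 bases before the RefSeq transcription start in mouse build GRCm38.p6, 5′ to 3′ on the gene's own strand, and capitals mark AGGTCA on either strand. *Ryr2* lies on the minus strand (chr13:12106946-12107195) and *Pln* on the plus strand (chr10:53337436-53337685).
Ryr2: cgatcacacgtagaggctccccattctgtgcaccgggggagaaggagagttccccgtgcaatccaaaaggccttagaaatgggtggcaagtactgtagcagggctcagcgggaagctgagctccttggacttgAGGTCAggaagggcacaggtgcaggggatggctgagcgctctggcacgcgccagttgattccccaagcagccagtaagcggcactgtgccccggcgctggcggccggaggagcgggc
Pln: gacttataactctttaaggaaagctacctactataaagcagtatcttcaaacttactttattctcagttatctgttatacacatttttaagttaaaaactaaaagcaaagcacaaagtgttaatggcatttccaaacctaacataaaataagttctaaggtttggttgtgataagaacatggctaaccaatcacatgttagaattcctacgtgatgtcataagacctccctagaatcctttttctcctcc

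The *Ryr2* window holds the 6 letters once, with the first base 117 bases before the start, and the *Pln* window does not hold them. RefSeq windows were matched for 6 of the 10 genes (*Ryr2*, *Pln*, *Jph2*, *Casq2*, *Hrc* and *Fkbp1b*), and none for *Atp2a2*. The letters occur in 2 of the 6, *Ryr2* and *Jph2*. In *Jph2*, which did not pass the test, they lie on the opposite strand. Of all 27025 genes with windows of the same length, 15.8% hold them in any window, and of all 32851 windows 14.0% do. A match is therefore common and is given as a description only.

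The question behind the comparison was what a fetal heart without the thyroid hormone-clearing enzyme expresses. Of the 10 genes, *Atp2a2* and *Ryr2* were higher in *Dio3-/-* hearts, and neither inhibitory peptide of the pump passed the test. *Atp2a2*, which encodes the SR calcium pump SERCA2, averaged 433 RPKM in *Dio3+/+* hearts (CV 0.11, n = 4) and 771 RPKM in *Dio3-/-* hearts (CV 0.06, n = 4), a 1.78-fold higher level. *Ryr2*, the cardiac ryanodine receptor, averaged 24.2 RPKM (CV 0.15) and 36.6 RPKM (CV 0.08), a 1.51-fold higher level. Because these are whole hearts, more cells of a type and more RNA per cell cannot be told apart.

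Both differences were larger than the spread between hearts, as were those of *Trdn*, *Hrc* and *Asph*, 5 of the 10 genes against 15.5% of all tested genes, when the gap between means is set against the added SDs. The means of *Atp2a2* were 338 RPKM apart, against 93.9 RPKM for the SDs of both genotypes added, and those of *Ryr2* 12.4 RPKM apart against 6.56 RPKM. On the scale of log2(RPKM + 0.5), *Atp2a2* was higher by 0.83 (SE 0.08, 95% interval 0.64 to 1.02), with a limma adjusted P of 0.00205. *Ryr2* was higher by 0.59 (SE 0.10, 95% interval 0.36 to 0.82), with a limma adjusted P of 0.0231. Among 14657 tested genes, each taken by its most abundant row, *Atp2a2* ranked 128 by average level, 53 by fold in the higher direction and 13 by RPKM gained. *Ryr2* ranked 107 by fold. Both calls were lost with an unequal-variance test that does not borrow the spread from other rows, at adjusted P values of 0.0724 for *Atp2a2* and 0.165 for *Ryr2*. That test was run here on genotype means and rounded CVs. The study used an unequal-variance test on its samples, and its list of differing genes holds *Atp2a2*, *Ryr2* and *Asph* of the 10.

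A call of 2 of 10 genes, both higher, compares with 1.91% of all tested genes called higher and 2.29% called in either direction. The median log2 difference was 0.28 over the 10 genes and 0.04 over all tested genes. It was 0.23 over 7 cardiomyocyte markers and 0.23 over 6 ventricular markers, which are described further below. Mean levels were higher in *Dio3-/-* hearts for 8 of the 10 genes, and for 63.3% of all tested genes. An unadjusted P under 0.05 was found for 7 of the 10, all of them higher, and for 19.7% of all tested genes. Beyond *Atp2a2* and *Ryr2*, the genes with such a P were *Casq2*, *Trdn*, *Hrc*, *Asph* and *Jph2*, with log2 differences of 0.16 to 0.34 and limma adjusted P values of 0.0581 to 0.206, none of which passed.

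**Figure D1:**
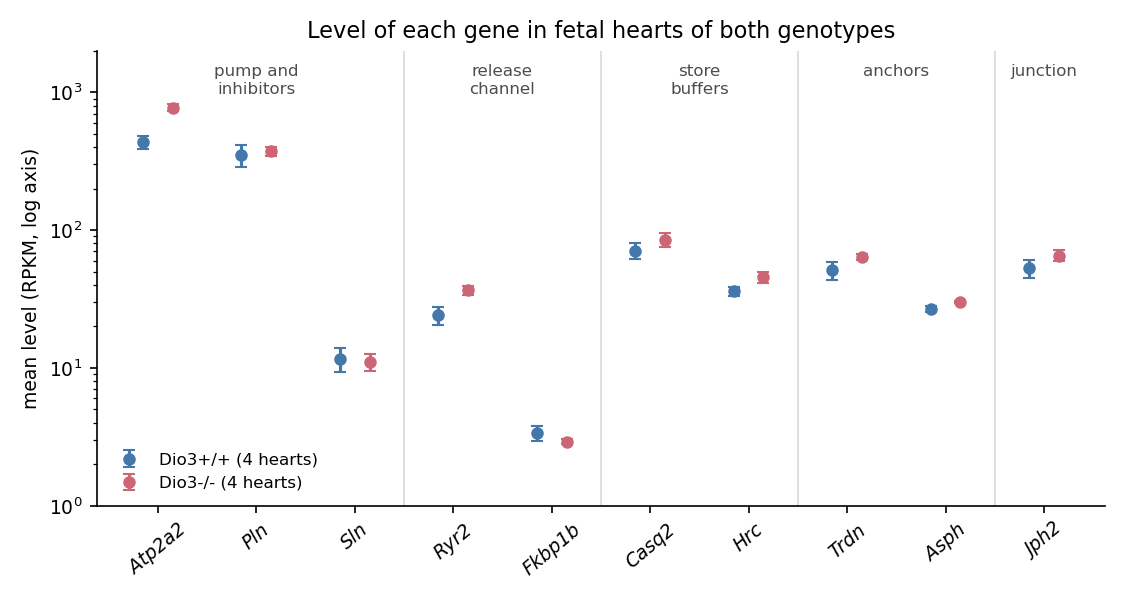
Mean level in RPKM (log axis) of the 10 calcium cycling genes in *Dio3+/+* and *Dio3-/-* hearts, with bars of 1 SD taken from the deposited CV, n = 4 hearts per genotype. *Atp2a2* (433 and 771 RPKM) and *Ryr2* (24.2 and 36.6 RPKM) lie apart by more than their bars, as do *Trdn*, *Hrc* and *Asph* by less, while the points of *Pln*, *Sln* and *Fkbp1b* lie close together.

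Neither inhibitor of the pump passed the test. *Pln*, which encodes phospholamban, the main inhibitor of SERCA2 in ventricular muscle, averaged 352 RPKM in *Dio3+/+* (CV 0.18) and 373 RPKM in *Dio3-/-* hearts (CV 0.07). *Sln*, which encodes sarcolipin, the inhibitor of the pump in atrial and skeletal muscle, averaged 11.7 RPKM (CV 0.20) and 11.0 RPKM (CV 0.14). The log2 difference was 0.08 for *Pln* (95% interval −0.18 to 0.35, limma adjusted P = 0.754). For *Sln* it was −0.08 (95% interval −0.40 to 0.23, limma adjusted P = 0.804). The intervals leave room for a change in either direction, but both end below the lower bound of *Atp2a2*, 0.64. Exons of *Pln* overlap an opposite-strand gene model, *Gm47644*, over 59.6% of their length in the GENCODE M21 annotation, and no source used here says whether reads were counted by strand, so reads of the pair may not be separated.

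The inhibitor RNAs were a smaller part of the pump RNA in *Dio3-/-* hearts. For each unit of *Atp2a2* RNA there were 0.811 units of *Pln* in *Dio3+/+* and 0.483 units in *Dio3-/-* hearts, both in RPKM. This ratio was lower by 0.75 on the log2 scale, with an SE of at most 0.23 whatever the covariance of both genes across hearts, a bound used because that covariance cannot be read from genotype means. The ratio within a genotype depends on the rows taken. In *Dio3+/+* hearts the rows of *Atp2a2* averaged 342 and 433 RPKM and those of *Pln* 314 and 352 RPKM. *Sln* was 2.69% of *Atp2a2* in *Dio3+/+* and 1.42% in *Dio3-/-* hearts, a log2 change of −0.91 (SE at most 0.26). These ratios follow from the values above and were given no test of their own. Ratios are printed from the means. Their log2 changes, here and below, are on the scale of log2(RPKM + 0.5), so the printed ratios can give slightly different changes.

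The release channel passed in every row, and its binding partners did not pass. *Ryr2* was higher in each of its 3 transcript rows, by 0.54 to 0.59 on the log2 scale, with limma adjusted P values of 0.0203 to 0.0287. *Fkbp1b*, which encodes the FK506-binding protein (calstabin 2) that sits on the cardiac ryanodine receptor, was the scarcest of the 10, at 3.37 RPKM in *Dio3+/+* (CV 0.13) and 2.92 RPKM in *Dio3-/-* hearts (CV 0.04). Its log2 difference was −0.18 (95% interval −0.38 to 0.02, limma adjusted P = 0.319). *Fkbp1b* was 13.9% of *Ryr2* in *Dio3+/+* and 7.97% in *Dio3-/-* hearts. On the scale of log2(RPKM + 0.5) the change was −0.77 (SE at most 0.20), less than that of the printed shares because of the shift. Its paralog *Fkbp1a*, which also binds ryanodine receptors, was 44.5 times as abundant as *Fkbp1b* in *Dio3+/+* and 57.3 times in *Dio3-/-* hearts.

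*Casq2* and *Hrc*, whose proteins bind calcium inside the store, did not pass the test. *Casq2*, cardiac calsequestrin, the main calcium-binding protein of the store, averaged 70.9 RPKM in *Dio3+/+* (CV 0.13) and 85.2 RPKM in *Dio3-/-* hearts (CV 0.11), with a log2 difference of 0.27 (95% interval 0.03 to 0.50, limma adjusted P = 0.206). *Hrc*, the histidine-rich calcium-binding protein of the store, averaged 36.0 RPKM (CV 0.08) and 45.7 RPKM (CV 0.09). Its log2 difference was 0.34 (SE 0.08, 95% interval 0.16 to 0.51), and its limma adjusted P of 0.0581 lay just outside the threshold of 0.05. *Hrc* passed when only rows with a mean above 5 RPKM were tested, at an adjusted P of 0.0455, and when rows with a CV above 0.5 were left out, at 0.0410. The ratio of *Hrc* to *Casq2* was 0.509 in *Dio3+/+* and 0.536 in *Dio3-/-* hearts, a log2 change of 0.07 (SE at most 0.21).

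*Trdn* and *Jph2* encode proteins at the junction with the surface membrane, as does *Asph* for only part of its products. All had higher means in *Dio3-/-* hearts and did not pass. *Trdn*, which encodes triadin, the protein that ties calsequestrin to the ryanodine receptor, averaged 51.1 RPKM in *Dio3+/+* (CV 0.15) and 63.4 RPKM in *Dio3-/-* hearts (CV 0.05), a log2 difference of 0.31 (limma adjusted P = 0.125). *Jph2*, junctophilin 2, which spans the cleft between the surface membrane and the SR, averaged 53.1 RPKM (CV 0.15) and 65.4 RPKM (CV 0.09), a log2 difference of 0.30 (limma adjusted P = 0.166). *Asph*, whose products include the calsequestrin-binding protein junctin and the enzyme aspartyl hydroxylase, averaged 26.8 RPKM (CV 0.05) and 29.97 RPKM (CV 0.02), a log2 difference of 0.16 (limma adjusted P = 0.108). The ratios to *Ryr2*, which move with the call of *Ryr2* itself and were not tested, changed by little more than the bound on their SE. *Trdn* went from 2.11 to 1.73 units per unit of *Ryr2* and *Jph2* from 2.20 to 1.78, log2 changes of −0.28 (SE at most 0.23) and −0.29 (SE at most 0.25).

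**Figure D2:**
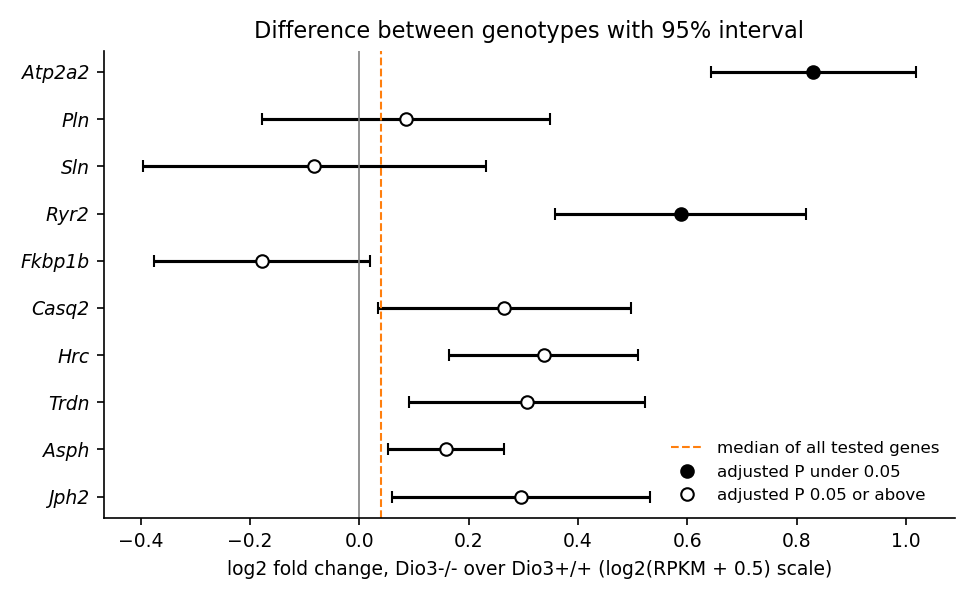
Difference of *Dio3-/-* from *Dio3+/+* hearts on the log2(RPKM + 0.5) scale for the most abundant row of each calcium cycling gene, with 95% intervals. The intervals of *Atp2a2* (0.64 to 1.02) and *Ryr2* (0.36 to 0.82) lie wholly above those of *Pln* (−0.18 to 0.35) and *Fkbp1b* (−0.38 to 0.02).

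The order of the genes by level was nearly the same in both genotypes. In *Dio3+/+* hearts it ran *Atp2a2*, *Pln*, *Casq2*, *Jph2*, *Trdn*, *Hrc*, *Asph*, *Ryr2*, *Sln* and *Fkbp1b*, and in *Dio3-/-* hearts *Ryr2* stood above *Asph*. *Atp2a2* and *Pln* differed by 81.8 RPKM in *Dio3+/+* hearts, less than their added SDs of 111 RPKM, and by 399 RPKM in *Dio3-/-* hearts, against 72.4 RPKM. *Jph2* and *Trdn* were within their added SDs in both genotypes, and *Asph* and *Ryr2* in *Dio3+/+* hearts. The highest level was 129 times the lowest in *Dio3+/+* and 264 times in *Dio3-/-* hearts. The summed level of the 10 genes was 1062 RPKM and 1484 RPKM, and without *Atp2a2* 629 RPKM and 713 RPKM, so most of the gain was that of the pump.

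The spread between hearts was mostly narrower in *Dio3-/-* hearts. The CV was lower there for 9 of the 10 genes and for 65.4% of all tested genes, with medians over the 10 of 0.14 in *Dio3+/+* and 0.075 in *Dio3-/-* hearts. Over all tested genes these medians were 0.09 and 0.06. The highest CV of the 10 in *Dio3-/-* hearts, the genotype with the conflicting age labels, was the 0.14 of *Sln*.

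Transcript rows of a gene share reads, so they are not independent. Of all tested rows, 2.15% were called. Among the 29 rows of the 10 genes, all 5 that were called belonged to *Atp2a2* (2 of 2 rows) and *Ryr2* (3 of 3 rows). The 4 *Trdn* rows spanned 20.3 to 51.1 RPKM in *Dio3+/+* hearts with nearly equal log2 differences, 0.30 to 0.31. The 12 *Asph* rows fell at different levels. The 5 rows above 25 RPKM in *Dio3+/+* hearts differed by 0.16 to 0.17 on the log2 scale, the 3 rows at 17.5 to 17.6 RPKM by 0.07 to 0.08, and the 4 rows at 1.46 to 3.73 RPKM by 0.13 to 0.26. None of the *Asph* rows passed, with limma adjusted P values of 0.0822 to 0.605, and which row stands for junctin was not worked out. Exons of *Asph* overlap the opposite-strand gene *Clvs1* over 14.3% of their length, so here too reads of the pair may not be separated.

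**Figure D3:**
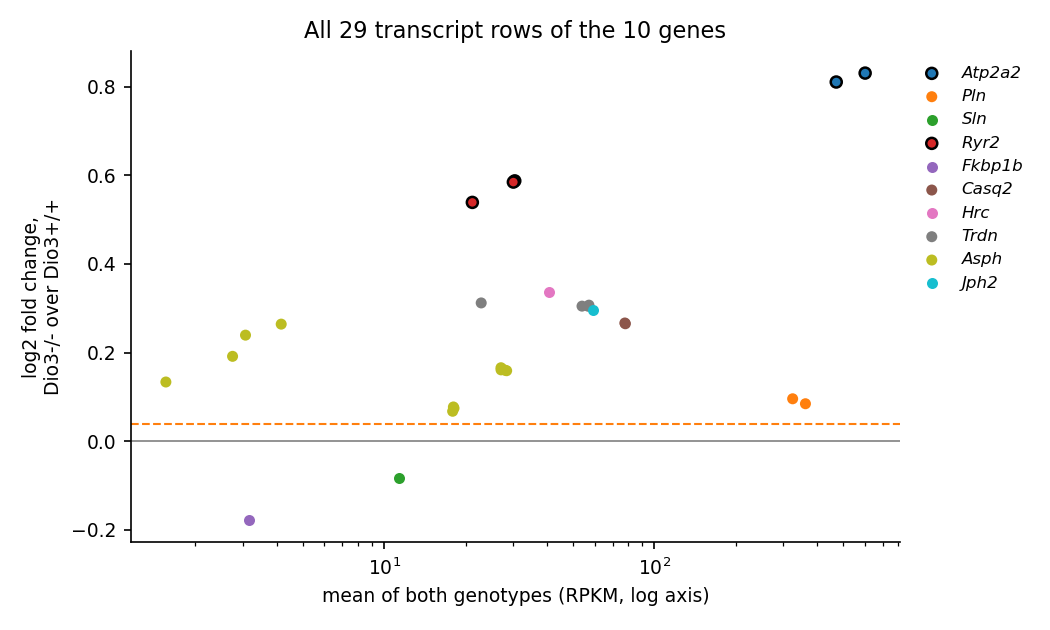
Difference of *Dio3-/-* from *Dio3+/+* hearts on the log2(RPKM + 0.5) scale against mean level (log axis, RPKM) for all 29 transcript rows of the 10 genes. The *Atp2a2* rows lie at 0.81 to 0.83 and the *Ryr2* rows at 0.54 to 0.59, and the *Asph* rows spread over levels between 0.07 and 0.26.

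Other genes of the same system were described from a list of 44, of which 41 were found in the table and 38 were expressed above the limit. Of these 38, 3 passed the test, all higher in *Dio3-/-* hearts, against 1.91% of all tested genes called higher. A higher mean was found for 27 of the 38, near the 63.3% of all tested genes, and the median log2 difference was 0.12. *Casq1*, the calsequestrin of skeletal muscle, averaged 94.9 RPKM in *Dio3+/+* (CV 0.16) and 173 RPKM in *Dio3-/-* hearts (CV 0.06), a log2 difference of 0.87 (SE 0.10, limma adjusted P = 0.00484). *Tmem38a*, a potassium channel of the SR membrane (TRIC-A), averaged 21.01 RPKM (CV 0.02) and 27.6 RPKM (CV 0.12), a log2 difference of 0.38 (limma adjusted P = 0.0419). *Cmya5*, which encodes myospryn, a protein of the junctional SR, averaged 6.21 RPKM (CV 0.12) and 8.82 RPKM (CV 0.11), a log2 difference of 0.47 (limma adjusted P = 0.0440). Opposite-strand gene models overlap their exons as well, *A630019I02Rik* over 20.7% of those of *Cmya5* and *Gm17224* over 7.996% of those of *Casq1*. The calls of *Tmem38a* and *Cmya5* were each lost in 5 of 11 alternatives, at adjusted P values of up to 0.223 and 0.159, and that of *Casq1* in 1, at 0.135 without moderation.

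In the calsequestrin family the skeletal member had the higher mean in both genotypes. In *Dio3+/+* hearts the CVs were 0.16 for *Casq1* and 0.13 for *Casq2*, and this order was not tested. *Casq1* was 1.34 times the level of *Casq2* in *Dio3+/+* and 2.04 times in *Dio3-/-* hearts, and both summed to 166 and 259 RPKM. In the pump, ryanodine receptor and junctophilin families the cardiac member made up most of the RNA in both genotypes. *Atp2a2* was 98.7% of the RNA of *Atp2a1* to *Atp2a3* in *Dio3+/+* and 99.6% in *Dio3-/-* hearts, *Ryr2* 91.1% and 94.5% of the 3 ryanodine receptors, and *Jph2* 90.9% and 93.0% of the 4 junctophilins.

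No other gene of the list passed. Of 3 tested genes of pump isoforms and pump peptides, the most abundant was *Arln*, a peptide regulator of the pump, averaging 20.3 RPKM in wild-type hearts and 22.4 RPKM in *Dio3-/-* hearts (log2 difference 0.14, limma adjusted P = 0.386). Of 13 genes of other release channels and their regulators, 10 had a higher mean, and the most abundant, *Fkbp1a*, averaged 150 and 167 RPKM (log2 difference 0.16, limma adjusted P = 0.143). All 5 genes of the phosphatase arm that takes phosphate off phospholamban were tested, led by *Ppp1ca*, a catalytic subunit of protein phosphatase 1, at 189 and 206 RPKM (log2 difference 0.13, limma adjusted P = 0.294). All 5 store-refilling genes were tested as well, and *Orai1*, the calcium channel of the surface membrane, averaged 7.57 and 8.58 RPKM (log2 difference 0.17, limma adjusted P = 0.0989). Of the remaining tested junction genes, the most abundant was *Bin1*, a shaper of the surface membrane's T-tubules, at 10.9 RPKM in *Dio3+/+* (CV 0.71) and 7.49 RPKM in *Dio3-/-* hearts (log2 difference −0.51, limma adjusted P = 0.537). *Calr*, the calcium-binding chaperone calreticulin, had a lower mean in *Dio3-/-* hearts, 323 and 302 RPKM (log2 difference −0.10, limma adjusted P = 0.600).

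**Figure D4:**
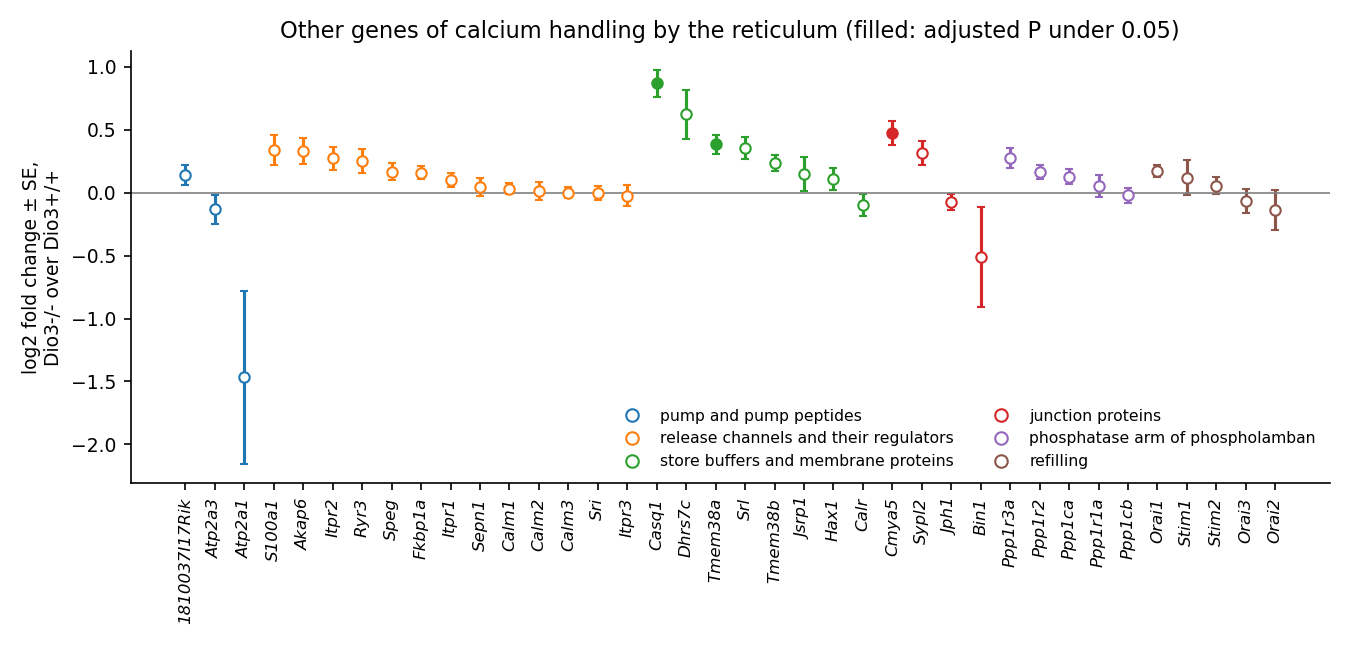
Difference of *Dio3-/-* from *Dio3+/+* hearts on the log2(RPKM + 0.5) scale for the tested genes of the wider calcium store list, grouped by role. *Casq1* (0.87), *Cmya5* (0.47) and *Tmem38a* (0.38) are the 3 that passed.

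Markers of heart muscle and of other cells were summed beside these results. The summed level of 7 cardiomyocyte markers was 1.19 times as high in *Dio3-/-* hearts, with a median log2 difference of 0.23, and 1 of them, *Myh6*, the fast myosin heavy chain of the heart, passed the test. The 6 ventricular markers had a median of 0.23 and the 8 atrial markers a median of 0.09, with none called. Summed red cell markers were 2.90 times as high in *Dio3+/+* hearts, and 1 of 4, the embryonic globin *Hbb-bh1*, was called lower in *Dio3-/-* hearts (limma adjusted P = 0.0468). Summed liver markers were 5.28 times as high in *Dio3-/-* hearts, but none of the 9 was called, and their median CV was 1.12 in *Dio3+/+* and 1.18 in *Dio3-/-* hearts. Their part in the differences above was not tested. The 8 skeletal muscle markers summed to 84.6 RPKM in the *Dio3+/+* and 93.5 RPKM in the *Dio3-/-* hearts, and none was called. Of these, *Myod1*, *Myog* and *Myh3*, which define skeletal muscle, averaged 4.42, 9.78 and 14.2 RPKM in *Dio3+/+* and 0.46, 1.17 and 0.72 RPKM in *Dio3-/-* hearts. Their CVs were 1.62, 1.56 and 1.61 in *Dio3+/+* and 1.18, 0.86 and 0.99 in *Dio3-/-* hearts, so single hearts were very uneven. *Ckm*, a creatine kinase that heart muscle also expresses, averaged 50.4 RPKM in *Dio3+/+* (CV 0.33) and 87.8 RPKM in *Dio3-/-* hearts (CV 0.23). None was called of the endothelial (210 and 224 RPKM), smooth muscle (664 and 780 RPKM), epicardial (82.3 and 87.2 RPKM) and fibroblast markers (542 and 477 RPKM). Their sums differed by smaller ratios than those of red cell and liver markers. The smooth muscle sum was 1.17 times as high in *Dio3-/-* hearts. Fibroblast markers had a median CV of 0.42 in *Dio3+/+* and 0.04 in *Dio3-/-* hearts.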

How the data were processed

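RNA from 8 fetal hearts, 4 per genotype, was depleted of ribosomal RNA and sequenced as single-end reads. Per the study's methods and the submitters' processing notes, reads were checked with FastQC and aligned with NovoAlign 2.08, and uniquely mapping reads were kept and scaled to the shallowest sample. The genome build is not given in the sources used here. The authors deposited genotype means per transcript row, read here as RPKM because the methods filter in that unit and the header names none, and CVs, a ratio of SD to mean, both with 2 decimals. The table holds no read totals, and the methods give aligned reads as a range over samples, not per heart. Columns with the authors' own fold changes and q values were not used.

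Means were transformed to log2(RPKM + 0.5), the SD was taken from the CV by the delta method, and the 32703 rows whose mean exceeded 1 RPKM in either genotype were fitted with limma 3.58.1 in R 4.3.3, with a mean-variance trend and Benjamini-Hochberg adjustment over all of them (threshold 0.05, two-sided). The shift of 0.5 understates the change of low genes. Each gene was taken by its row with the highest average. The fit was tested on simulated rows, drawn independently with equal CVs in both genotypes, so shared reads and unequal CVs were not covered. Named genes were the 10 members, those of the wider list that passed, and the most abundant of each role. The members, the lists and this rule were chosen with earlier results of these data known, so counts over them are descriptions, beside the same over all genes. Alternatives covered the shift, the filter, the trend, moderation, centring and the CVs. Sequences were read from RefSeq, and exon overlaps from GENCODE.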

Additional observations from a re-analysis of the deposited data

How the results depend on the processing

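No paired analysis was possible because the table holds genotype means and no value of a single heart, and leaving out each heart in turn was not run for the same reason. Each of the 10 log2 differences kept its direction under every alternative that tested it (*Fkbp1b* is not tested above 5 RPKM), with *Atp2a2* between 0.79 and 0.84 and *Ryr2* between 0.54 and 0.60. The unequal-variance test without moderation called 0 of the 10 genes, 4 of which had an unadjusted P under 0.05, against 7 with limma. It called 0 genes of the wider list and 37 gene symbols in any row. By the most abundant row it called 27 of 14657 tested genes, so few calls were lost or kept anywhere. In the wider list, 14 genes had an unadjusted P under 0.05 with it. With limma these were 16 of 38, where the share of all tested genes was 19.7%. The share of all tested genes with such a P was not worked out for the unequal-variance test. The counts of 4 and 14 therefore have no background to be read against. With limma, 379 gene symbols passed in any row, against 221 with no filter, 197 when centred on the median log2 ratio of 0.04, and 206 with the CVs raised by their rounding error. The wider list kept 1 call of 3 with no filter, with no trend, when centred and with raised CVs, and this was *Casq1* each time. Centring moved the share of higher among the called genes from 83.3% to 71.7%. The cause of these differences was not tested. CVs with 2 decimals and 4 hearts per genotype limit the precision, and 2 conflicting age labels could not be taken into account.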

Other observations

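The skeletal muscle members of the pump and release channel families were uneven among the *Dio3+/+* hearts. *Atp2a1*, the pump of fast skeletal muscle, averaged 3.34 RPKM with a CV of 1.36 in *Dio3+/+* and 0.89 RPKM with a CV of 0.23 in *Dio3-/-* hearts. *Ryr1*, the skeletal ryanodine receptor, averaged 0.71 RPKM with a CV of 1.50 in *Dio3+/+* and 0.09 RPKM in *Dio3-/-* hearts, below the limit for testing. The 8 skeletal muscle markers had a median CV of 1.55 in *Dio3+/+* hearts, where a CV of 2 is the most that 4 values can give. *Casq1*, with a CV of 0.16 in the same hearts, did not share that spread.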
